A study of Mus musculus with 15 samples.

Results

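The core components of the β-catenin pathway were followed in RNA sequencing of primary mouse articular chondrocytes. The 10 genes *Ctnnb1*, *Apc*, *Gsk3a*, *Gsk3b*, *Csnk1a1*, *Btrc*, *Tcf7l1*, *Tcf7l2*, *Lrp5* and *Lrp6* were picked by symbol from the 24134 genes of the deposited count tables, and all 10 passed the filter on low counts. The cells came from the femoral condyles and tibial plateaus of ICR mice aged 4 to 5 days and were used at passage 0. In the siRNA table, 3 libraries (siCtrl) came from cells transfected with control siRNA and 3 (siTnks/2) from cells transfected with siRNAs against both tankyrase genes, with METAFECTENE PRO as the carrier in each. No time between transfection and harvest was stated for these 6 libraries. In the drug table, 3 libraries each came from cells kept for 108 h with the solvent DMSO, with 10 μM XAV939 or with 10 μM IWR-1. XAV939 and IWR-1 are small-molecule inhibitors of both tankyrases, the former occupying the nicotinamide pocket of the catalytic domain and the latter the neighbouring adenosine pocket. The methods call the 3 samples of a group biological replicates but tie none of them to an animal, so the p-values measure the spread between these samples.

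β-catenin, encoded by *Ctnnb1*, is a junction protein that also carries Wnt signals to the nucleus. Without Wnt, the scaffolds APC and Axin hold it beside casein kinase 1α and GSK3, which phosphorylate it so that the ubiquitin ligase subunit β-TrCP can mark it for the proteasome. Wnt binding to Frizzled and to the co-receptors LRP5 and LRP6 stops this destruction complex, and β-catenin then joins TCF/LEF factors on DNA. Tankyrases add poly(ADP-ribose) to Axin and so trigger its degradation, which is why tankyrase inhibitors are used to block Wnt signaling. In cartilage the pathway is known for its part in chondrocyte differentiation and in osteoarthritis. Most of these steps act on proteins, whereas the counts described here measure mRNA.

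The stretch of *Ctnnb1* that the kinases act on is printed below because it ties the members together. It spans codons 29 to 49 on chr9:120950593-120950655 (mm10, plus strand), within coding exon 3 of the main transcript. Capitals mark codon 45, the target of casein kinase 1α, and codons 41, 37 and 33, which GSK3 then phosphorylates in turn.

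Ctnnb1: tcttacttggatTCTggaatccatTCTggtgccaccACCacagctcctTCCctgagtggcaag

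*Lrp5* and *Lrp6* carry matching docking sites in their intracellular tails, and these are shown because the results below turn on the difference between the co-receptors. Capitals mark the codons of the first run of 3 prolines, a serine or threonine, and a proline, which becomes phosphorylated when Wnt binds. The *Lrp5* stretch covers codons 1494 to 1508 and crosses from exon 21 to exon 22 (chr19:3586442-3590979, minus strand). The *Lrp6* stretch covers codons 1482 to 1496 and also joins exons 21 and 22 (chr6:134453609-134454702, minus strand). They share 31 of 45 bases.

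Lrp5: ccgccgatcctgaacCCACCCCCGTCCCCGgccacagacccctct

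Lrp6: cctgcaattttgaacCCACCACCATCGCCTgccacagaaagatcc

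The sense strands of the siRNAs used against the tankyrases are given to place the knockdown on its targets. The antisense strand that the study lists for the *Tnks* siRNA is not the exact complement of its sense strand, so only sense strands are printed. The *Tnks* siRNA matched coding exon 14 of *Tnks* (chr8:34855966-34855984, minus strand), and the *Tnks2* siRNA matched the 3′ untranslated part of exon 27 of *Tnks2* (chr19:36892822-36892840, plus strand). A perfect match to either was found in no annotated transcript of another gene, the members included. Partial matches and the antisense strands were not searched.

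siTnks: gucugucguugaguaccuu

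siTnks2: gugucuacuuguaucacau

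The targeted genes were lower in all siTnks/2 libraries. *Tnks* stood at 69.0, 58.4 and 70.1 CPM (counts per 1e6, scaled by TMM) in siCtrl and at 19.5, 12.7 and 24.0 in siTnks/2, a log2 fold change of -1.81 ± 0.21 (SE, edgeR, adjusted p = 0.00569). *Tnks2* fell by 1.104 on the log2 scale (SE 0.11, edgeR adjusted p = 0.00384). All XAV939 and IWR-1 libraries also lay below DMSO for *Tnks2*. The log2 fold changes were -0.41 with XAV939 (edgeR adjusted p = 0.0394) and -0.27 with IWR-1 (adjusted p = 0.105, not called). *Tnks* overlapped with DMSO for both compounds and was not called. Totals ran from 26.9 to 31.3 M counts (M, 1e6) for the siRNA libraries and from 27.4 to 36.6 M for the drug libraries. All 9 chondrocyte markers were detected in every group, and their summed level differed between groups, with 80600 to 109400 CPM in siCtrl, 116200 to 192500 in siTnks/2, 26350 to 35710 with DMSO, 36630 to 55740 with XAV939 and 87020 to 110800 with IWR-1. The 6 fibroblast or synovial markers summed to 3286 to 5606, 1603 to 4515, 9197 to 12130, 4314 to 6404 and 3288 to 5705 CPM in the same order. The 4 osteoblast markers summed to 59.3 to 70.9, 76.15 to 131, 42.2 to 65.3, 56.5 to 65.7 and 42.2 to 60.6 CPM in that order. The 3 adipocyte markers summed to 4.07 to 6.21, 7.01 to 11.7, 36.5 to 49.7, 25.1 to 30.9 and 11.7 to 16.4 CPM. The 7 leukocyte markers reached at most 15.4 CPM in any library, the 4 endothelial markers 7.38 CPM and the 4 skeletal muscle markers 6.91 CPM. The marker levels thus moved with every comparison below, and their part in the members' changes was not tested. In bulk RNA, fewer cells of a type and less RNA per cell cannot be told apart.

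*Ctnnb1* was the most abundant member in every group. Divided by exon length, its mean level was 197 ± 4.75 CPM per kb with DMSO and 209 ± 6.85 with control siRNA (SD, n = 3). *Gsk3a* (41.1 with DMSO, 42.8 with control siRNA) and *Csnk1a1* (38.8 and 27.4) followed, and their libraries overlapped with DMSO but in no other group. *Lrp5* (19.1 and 13.4), *Tcf7l1* (13.9 and 12.8), *Gsk3b* (11.8 and 11.5) and *Lrp6* (8.51 and 13.2) formed the middle of the order, and neighbours among them overlapped in both control groups. *Btrc*, *Apc* and *Tcf7l2* came last, at 4.77, 4.18 and 3.37 CPM per kb with DMSO, where their libraries overlapped, and at 4.94, 6.90 and 2.82 with control siRNA, where they did not. The 2 tables were scaled separately, so levels set across them are a description. *Lrp5* ranked 4 of 10 in DMSO, XAV939 and siCtrl but 7 in IWR-1 and siTnks/2, while *Lrp6* ranked 7 in DMSO and XAV939 and 4 in siTnks/2.

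**Figure D1:**
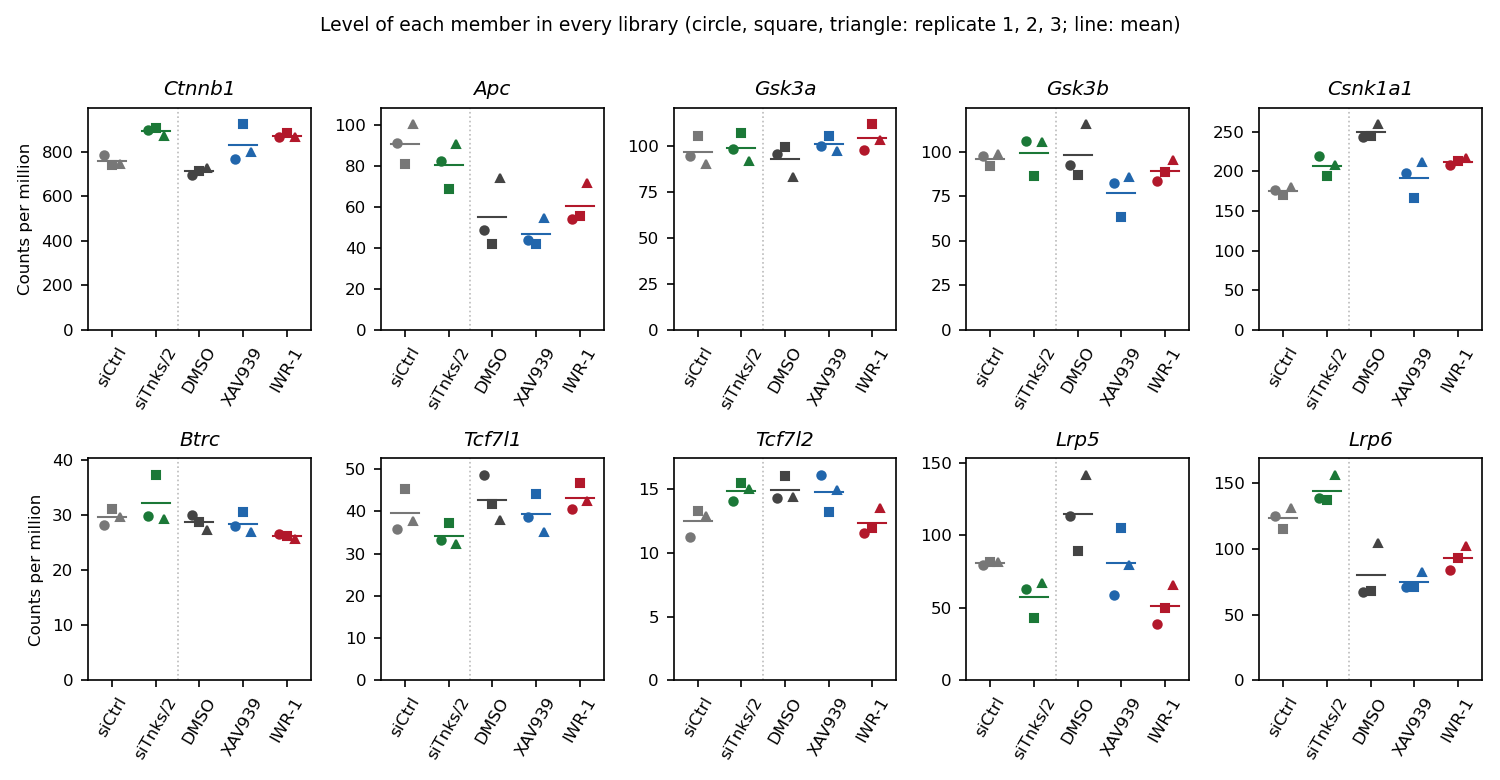
Level of the 10 members in each of the 15 libraries, in CPM on linear axes that start at 0. Symbols give the replicate number, horizontal lines the mean of 3 libraries, and the dotted line separates the siRNA table from the drug table; *Ctnnb1* lies higher in every treated library than in its controls, and the mean of *Lrp5* is lowest with IWR-1.

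Few of the members were called in the fit without a replicate block, which is given first. After knockdown, 2 of 10 passed an adjusted p of 0.05 (edgeR), both higher, while 18.0% of 13672 genes did (10.4% higher, 7.61% lower). With XAV939, 1 of 10 passed, lower, while 17.4% of 13873 genes did (7.57% higher, 9.85% lower). With IWR-1, 1 of 10 passed, also lower, while 36.4% of genes did (16.2% higher, 20.2% lower). In this fit the knockdown count is near its background and the counts for the compounds lie under theirs, and the differences were not tested. Treated and control libraries did not overlap for 5 members after knockdown, 3 with XAV939 and 5 with IWR-1, where 43.8%, 33.2% and 51.1% of genes did not, so these counts are near the background. None of the 10 was past the study's limits for differential expression, a change above 3-fold with an adjusted p under 1e-05, in any comparison. The median log2 fold change of the members was 0.08 after knockdown, -0.11 with XAV939 and -0.06 with IWR-1, beside -0.001, 0.016 and 0.006 over all genes tested.

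Libraries with the same replicate number tended to deviate together, least so for replicate 2 of the drug table. The comparisons were therefore also fitted with replicate as a block. After knockdown this called 7 members (4 higher, 3 lower) beside 34.6% of all genes (18.1% higher, 16.5% lower). With XAV939 it called 2, both lower, beside 33.4% of genes (16.0% higher, 17.4% lower), and with IWR-1 it called 2, 1 each way, beside 47.5% (22.2% higher, 25.3% lower). With the block the knockdown count thus lies above its background, and the counts for the compounds stay under theirs. These differences were not tested either, and the reading of the knockdown count depends on the fit. The XAV939 and IWR-1 comparisons share the DMSO libraries, and their values are given side by side only.

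**Figure D2:**
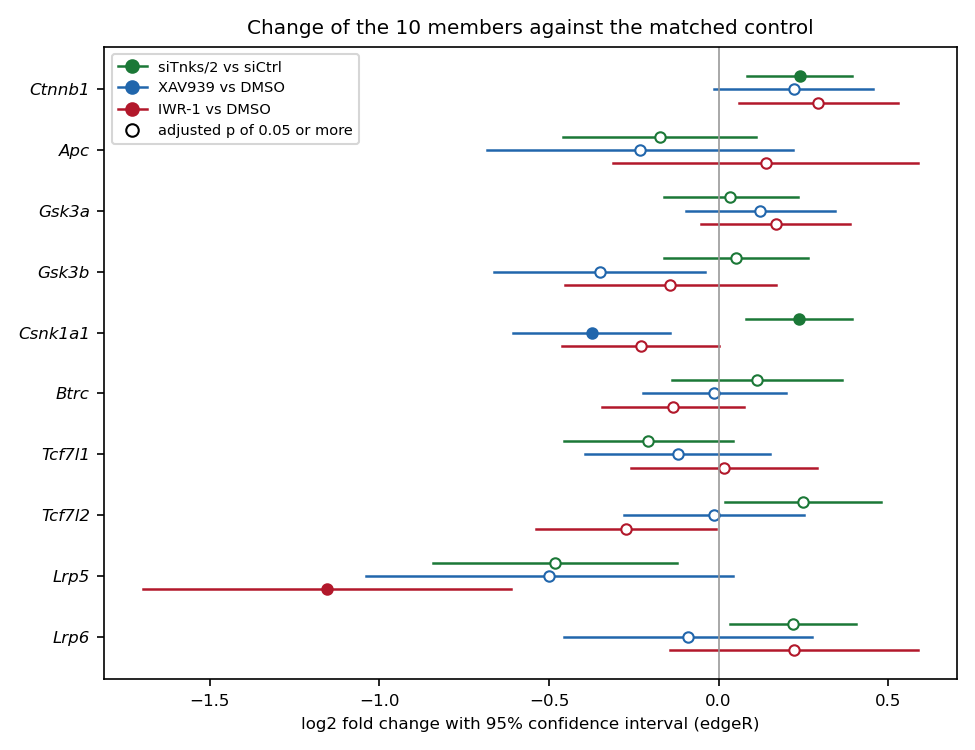
log2 fold change of each member with its 95% confidence interval (edgeR) after knockdown against control siRNA and with XAV939 or IWR-1 against DMSO. Filled points passed an adjusted p of 0.05 in the fit without the replicate block; *Lrp5* with IWR-1 lies farthest from 0, at -1.15, and *Csnk1a1* lies on opposite sides of 0 after knockdown and with the compounds.

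*Ctnnb1* (Entrez 12387, chr9:120933400-120960507), the transducer itself, rose after knockdown. Its level was 785, 740 and 745 CPM in siCtrl and 898, 908 and 871 CPM in siTnks/2. Every knockdown library lay above every control. The log2 fold change was 0.24 ± 0.066 (SE), or 1.18-fold (95% interval 1.06 to 1.31, edgeR adjusted p = 0.0484). With DMSO, *Ctnnb1* stood at 694, 712 and 729 CPM, with XAV939 at 769, 923 and 799, and with IWR-1 at 867, 883 and 868. Neither compound's libraries overlapped with DMSO. The XAV939 difference of 0.22 (95% interval -0.01 to 0.46) was not called (edgeR adjusted p = 0.175). The IWR-1 difference of 0.29 (0.06 to 0.53) missed the threshold (edgeR adjusted p = 0.0509) and passed it in 5 of 16 alternative fits. It passed with the block (adjusted p = 0.0208), upper-quartile scaling (adjusted p = 0.0388) or DESeq2 (adjusted p = 0.0147). It also passed without XAV939 replicate 2 (adjusted p = 0.015) and with only the IWR-1 and DMSO libraries fitted (adjusted p = 0.0287). The 3 IWR-1 libraries differed from each other by less than the 3 XAV939 libraries. *Ulk4*, a coding gene on the opposite strand whose span overlaps *Ctnnb1*, reached between 1.63 and 3.05 CPM in any library, far below *Ctnnb1*.

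The knockdown call of *Ctnnb1* was a marginal one. Left out in turn, siCtrl replicates 1, 2 and 3 and siTnks/2 replicates 1 and 3 each took its adjusted p above 0.05 (edgeR, up to 0.162), with log2 fold changes between 0.22 and 0.27. Upper-quartile scaling (adjusted p = 0.0544) and no filter on low counts (adjusted p = 0.0705) also ended the call. The call held in 5 of 12 alternative fits, that with the replicate block among them (0.24 ± 0.055, SE, edgeR adjusted p = 0.0243). The effect of XAV939 minus that of knockdown was -0.03 (95% interval -0.30 to 0.24, edgeR adjusted p = 0.904), and that of IWR-1 minus knockdown was 0.04 (-0.225 to 0.31, adjusted p = 0.837).

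*Csnk1a1* (Entrez 93687), which encodes casein kinase 1α, the priming kinase of codon 45, was higher after knockdown and lower with XAV939. It stood at 176, 169.9 and 180.5 CPM in siCtrl and at 219.5, 193.7 and 207.7 CPM in siTnks/2, without overlap. The log2 fold change was 0.24 ± 0.066 (SE, edgeR adjusted p = 0.0488). It lost its call without the same 5 libraries as *Ctnnb1*, with adjusted p-values up to 0.145 and log2 fold changes between 0.19 and 0.26, and likewise with upper-quartile scaling (adjusted p = 0.0562) or no filter (adjusted p = 0.0639). It kept its call in 5 of 12 alternative fits, that with the replicate block among them (0.24 ± 0.049, SE, edgeR adjusted p = 0.0182). With DMSO it stood at 243, 245 and 259 CPM, with XAV939 at 198, 167 and 212, and with IWR-1 at 208, 212.5 and 217. All libraries of either compound lay below DMSO. The XAV939 difference was -0.37 ± 0.105 (SE, edgeR adjusted p = 0.0326), or 0.772-fold (95% interval 0.657 to 0.906). This call was lost without DMSO replicate 1 (adjusted p = 0.0836), 2 (adjusted p = 0.0579) or 3 (adjusted p = 0.0579), XAV939 replicate 1 (adjusted p = 0.0721) or 2 (adjusted p = 0.0548), or IWR-1 replicate 2 (adjusted p = 0.0625), while the log2 fold change stayed between -0.47 and -0.28. Upper-quartile scaling (adjusted p = 0.0523) and a fit of only the XAV939 and DMSO libraries (adjusted p = 0.0885) ended it as well. It held in 8 of 16 alternative fits, that with the replicate block among them (-0.38 ± 0.091, SE, edgeR adjusted p = 0.00857). The IWR-1 difference of -0.23 (95% interval -0.46 to 0.00) was not called (adjusted p = 0.113); it passed without XAV939 replicate 2 (adjusted p = 0.0335) and with only the IWR-1 and DMSO libraries fitted (adjusted p = 0.0478).

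The opposite shifts of *Csnk1a1* were tested directly in a model over all 15 libraries. The effect of XAV939 minus that of knockdown was -0.63 ± 0.13 (SE, 95% interval -0.90 to -0.36, edgeR adjusted p = 0.0058), the 1 member of 10 called, where 13.5% of 14271 genes were called (5.40% higher, 8.07% lower). The effect of IWR-1 minus that of knockdown was -0.48 ± 0.13 (-0.75 to -0.21, adjusted p = 0.0129), 1 of 2 members called, both lower, against 24.4% of genes (10.5% higher, 13.9% lower). With the block the members called were 2 for XAV939, both lower (28.2% of genes, 12.7% higher and 15.4% lower), and 2 for IWR-1, both lower (36.3% of genes, 17.0% higher and 19.3% lower). The member added was *Gsk3b* (XAV939 minus knockdown -0.41, adjusted p = 0.0306; -0.42 and adjusted p = 0.144 without the block). Both differences of *Csnk1a1* were called in all 15 fits that left out a library. Knockdown and compounds differ in control treatment, carrier and duration as well as in agent, and these cannot be told apart.

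The GSK3 kinases, which act after casein kinase 1α, were not called in any comparison without the replicate block. *Gsk3b* (Entrez 56637, chr16:38089001-38246084) stood at 92.5, 87.1 and 115 CPM with DMSO and at 82.3, 63.1 and 85.8 with XAV939. The highest XAV939 library lay below the lowest DMSO library. The difference of -0.35 ± 0.14 (SE) was not called (edgeR adjusted p = 0.113) but was with the block (adjusted p = 0.0196). With IWR-1 (83.7, 88.4 and 95.1 CPM) and after knockdown (106, 86.6 and 106, against 97.7, 91.8 and 98.8 in siCtrl), *Gsk3b* overlapped with its controls. *Gsk3a* (Entrez 606496, chr7:25228258-25237851), its paralogue, overlapped with its controls in all 3 comparisons, with log2 fold changes of 0.04, 0.12 and 0.17 after knockdown, with XAV939 and with IWR-1. Its 95% intervals together ran from -0.16 to 0.39.

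*Apc* (Entrez 11789), the scaffold, and *Btrc* (Entrez 12234, chr19:45363688-45533343), which encodes β-TrCP, were likewise not called without the block. *Apc* stood at 91.1, 81.0 and 100.3 CPM in siCtrl and at 82.3, 68.7 and 90.5 in siTnks/2. These ranges overlap, yet *Apc* was lower within all 3 numbered pairs, by 0.15, 0.24 and 0.15 on the log2 scale. With the block the difference of -0.18 ± 0.044 (SE) was called (edgeR adjusted p = 0.0298), and without it -0.17 ± 0.12 was not (adjusted p = 0.341). In the drug table *Apc* varied with replicate number, and replicate 3 was the highest of each group (74.3 CPM with DMSO, 54.6 with XAV939, 71.9 with IWR-1). *Btrc* lay between 25.6 and 31.2 CPM in every library except siTnks/2 replicate 2 (37.3 CPM). All 3 IWR-1 libraries lay below DMSO, by -0.13 (95% interval -0.35 to 0.08, adjusted p = 0.307).

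The TCF factors among the members were not called in any comparison with a control unless replicate was a block. *Tcf7l2* (Entrez 21416, chr19:55741797-55933659), which encodes TCF4, stood at 11.3, 13.3 and 12.9 CPM in siCtrl and at 14.1, 15.5 and 15.04 in siTnks/2. All knockdown libraries were higher, by 0.25 ± 0.097 (SE, edgeR adjusted p = 0.116; with the block adjusted p = 0.0459). With DMSO it stood at 14.4, 16.0 and 14.4 CPM, with XAV939 at 16.1, 13.3 and 14.97, and with IWR-1 at 11.6, 11.97 and 13.5. IWR-1 libraries all lay below DMSO (-0.27 ± 0.12, adjusted p = 0.102), and XAV939 libraries overlapped with DMSO (-0.01 ± 0.12). The effect of IWR-1 minus that of knockdown was -0.53 ± 0.155 (SE, 95% interval -0.86 to -0.20, edgeR adjusted p = 0.0217). It was called in 14 of 15 fits with a library left out, the exception being siCtrl replicate 1 (-0.46, adjusted p = 0.0652).

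*Tcf7l1* (Entrez 21415, chr6:72626371-72789045) encodes TCF3, which acts mostly as a repressor of Wnt targets. It stood at 35.7, 45.3 and 37.8 CPM in siCtrl and at 33.3, 37.3 and 32.3 in siTnks/2, with overlap. The difference of -0.21 ± 0.105 (SE) was not called (edgeR adjusted p = 0.206), and with the block it was (-0.20 ± 0.056, adjusted p = 0.0402). With XAV939 and IWR-1 it changed by -0.12 (95% interval -0.395 to 0.15) and 0.02 (-0.26 to 0.29). Within a library, the ratio of *Tcf7l1* to *Tcf7l2* per kb of exon does not depend on how libraries are scaled. It was 4.54, 4.89 and 4.20 in siCtrl and 3.40, 3.46 and 3.08 in siTnks/2, all lower, a log2 difference of -0.45 (exact permutation test, two-sided, p = 0.1). That p is the smallest that 3 against 3 can give, so no such test can pass 0.05 here. The ratio overlapped with DMSO for XAV939 (log2 difference -0.10) and IWR-1 (0.29).

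The co-receptors parted from each other. *Lrp5* (Entrez 16973, chr19:3584825-3686585) stood at 113, 88.9 and 142 CPM with DMSO, at 58.7, 105 and 79.6 with XAV939, and at 38.6, 49.7 and 66.0 with IWR-1. All IWR-1 libraries lay below all DMSO libraries, whereas XAV939 replicate 2 lay inside the DMSO range. The IWR-1 difference was -1.15 ± 0.25 (SE), or 0.449-fold (95% interval 0.308 to 0.654, edgeR adjusted p = 0.00406). It was called in all 9 fits that left out a library, with log2 fold changes from -1.39 to -0.98. The XAV939 difference of -0.50 ± 0.245 (SE, 95% interval -1.04 to 0.04) was not called (adjusted p = 0.188), and leaving out 1 library moved it between -0.73 and -0.31. In the siRNA table *Lrp5* stood at 79.2, 81.3 and 81.5 CPM in siCtrl and at 62.8, 43.3 and 66.9 in siTnks/2. Here too the groups did not overlap, and siTnks/2 replicate 2 was the lowest. The difference was -0.48 ± 0.15 (SE, edgeR adjusted p = 0.0681), and with the block -0.50 ± 0.13 (adjusted p = 0.0307). With the DESeq2 Wald test it was -0.48 and called (adjusted p = 0.0199). Without siTnks/2 replicate 2 it was smaller, -0.31, and called (adjusted p = 0.0101), as it also was without siTnks/2 replicate 3 (-0.60, adjusted p = 0.0488).

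*Lrp6* (Entrez 16974, chr6:134446476-134566913) did not fall with *Lrp5*. It stood at 125, 115 and 131 CPM in siCtrl and at 139, 137 and 156 in siTnks/2, without overlap. The difference of 0.22 ± 0.078 (SE) was not called (edgeR adjusted p = 0.0951), and with the block it was (adjusted p = 0.0182). With DMSO it stood at 67.1, 68.0 and 104 CPM, with XAV939 at 70.7, 71.2 and 82.7, and with IWR-1 at 84.1, 93.1 and 102. DMSO replicate 3 lay far above the other two, and the groups overlapped for that library alone in the case of IWR-1. The IWR-1 difference of 0.22 (95% interval -0.14 to 0.59, adjusted p = 0.331) became 0.46 without DMSO replicate 3 (adjusted p = 0.0113), and the XAV939 difference went from -0.09 to 0.14.

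The balance of the co-receptors was therefore read within libraries. The ratio of *Lrp5* to *Lrp6* per kb was 2.63, 2.04 and 2.12 with DMSO, 1.30, 2.30 and 1.50 with XAV939, and 0.716, 0.833 and 1.01 with IWR-1. It was 0.991, 1.10 and 0.968 in siCtrl and 0.707, 0.493 and 0.669 in siTnks/2. The ratio was lower in every IWR-1 library than in any DMSO library, by -1.41 on the log2 scale or 0.376-fold, and in every siTnks/2 library than in any siCtrl library, by -0.73 or 0.604-fold (exact permutation test, two-sided, p = 0.1 in each). With XAV939 the groups overlapped through replicate 2 (log2 difference -0.45, exact permutation p = 0.3). The ratio of *Gsk3a* to *Gsk3b*, treated the same way, overlapped with its controls in all 3 comparisons (log2 differences -0.01, 0.48 and 0.30).

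**Figure D3:**
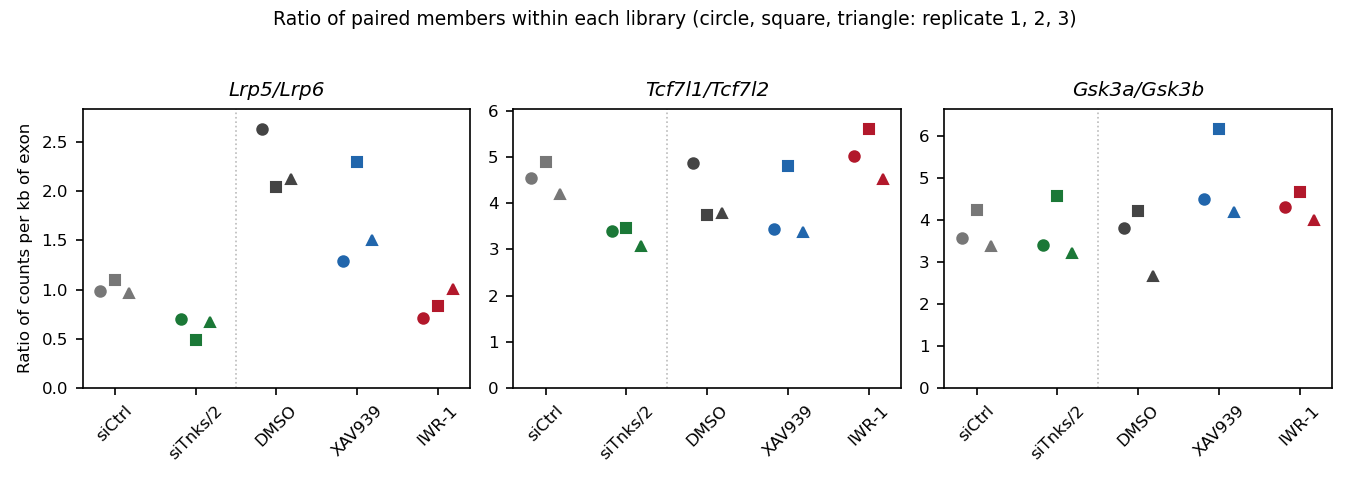
Ratio of 3 pairs of related members within each of the 15 libraries, per kb of exon, on linear axes that start at 0; symbols give the replicate number. The ratio of *Lrp5* to *Lrp6* lies between 0.716 and 1.01 with IWR-1 and between 2.04 and 2.63 with DMSO, while the ratio of *Gsk3a* to *Gsk3b* overlaps between treated and control libraries.

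At the matched dose and time the compounds could be compared with each other directly. In 10 comparisons of IWR-1 with XAV939, 1 per member, no member was called (edgeR, p adjusted over all genes), where 17.6% of genes were called (7.37% higher, 10.2% lower), and 1 had an unadjusted p under 0.05. That 1 was *Lrp5*, lower with IWR-1 by -0.66 ± 0.25 (SE, 95% interval -1.20 to -0.11, adjusted p = 0.0951). With the replicate block 3 members were called, against 30.7% of genes (14.1% higher, 16.6% lower). These were *Lrp5* (-0.67 ± 0.19, adjusted p = 0.0186), *Apc* (0.37 ± 0.10, adjusted p = 0.0171) and *Lrp6* (0.31 ± 0.10, adjusted p = 0.0387), the latter pair higher with IWR-1. *Lrp6* was also called without DMSO replicate 3 (0.32, adjusted p = 0.0497). The groups did not overlap for *Lrp6*, higher with IWR-1, and *Btrc*, lower, a count of 2 of 10 beside 37.6% of all genes. The ratio of *Lrp5* to *Lrp6* was lower in every IWR-1 library than in any XAV939 library (log2 difference -0.96, exact permutation p = 0.1). For *Ctnnb1* the difference between the compounds was 0.07 (95% interval -0.16 to 0.31) and for *Csnk1a1* 0.14 (-0.09 to 0.38).

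Axin and the close relatives of the members were read beside them. Of these 9 genes, 1 was called higher and 1 lower after knockdown, 2 lower with XAV939, and 5 lower with IWR-1. Over all genes 18.0%, 17.4% and 36.4% were called in these comparisons. *Axin2*, an Axin that is itself a Wnt target, stood at 3.01 ± 0.378 CPM with DMSO, 1.09 ± 0.23 with XAV939 and 0.613 ± 0.197 with IWR-1 (SD, n = 3). The falls were -1.45 ± 0.25 (SE, edgeR adjusted p = 0.00288) and -2.28 ± 0.265 (adjusted p = 7.74e-05), without overlap with DMSO. After knockdown *Axin2* overlapped with its controls (-0.23, 95% interval -0.88 to 0.42), and the effect of the compound minus that of knockdown was -1.23 for XAV939 (adjusted p = 0.0429) and -2.06 for IWR-1 (adjusted p = 0.00149). *Axin1*, the scaffold present throughout, was at 49.6 to 53.9 CPM in the 5 group means and was not called in any comparison.

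The other relatives divided by family. *Apc2*, the paralogue of *Apc*, fell by 0.89 on the log2 scale after knockdown (edgeR adjusted p = 0.00951) and by 0.97 with IWR-1 (adjusted p = 0.00152). *Csnk1e*, a casein kinase that acts with Dishevelled, fell with XAV939 (-0.40, adjusted p = 0.018) and IWR-1 (-0.735, adjusted p = 0.00021), whereas *Csnk1d* was not called. *Fbxw11*, the paralogue of *Btrc*, fell with IWR-1 (-0.31, adjusted p = 0.0238). Of the TCF/LEF factors outside the list, *Tcf7* fell with IWR-1 (-0.69, adjusted p = 0.01) and *Lef1* rose after knockdown (9.71 ± 0.861 CPM in siCtrl, 14.6 ± 0.991 in siTnks/2, log2 fold change 0.585, adjusted p = 0.0141). *Lef1* also lay above DMSO in every XAV939 and IWR-1 library, by 0.46 (adjusted p = 0.0713; with the block adjusted p = 0.0124) and 0.42 (adjusted p = 0.0615; with the block adjusted p = 0.0107). *Jup*, encoding the β-catenin relative plakoglobin, was not called in the fit without the block. With it, *Jup* was higher after knockdown (0.535, adjusted p = 0.0153) and lower with IWR-1 (-0.41, adjusted p = 0.0341). The block added 2 further calls, *Csnk1e* after knockdown (-0.26, adjusted p = 0.0475) and *Fbxw11* with XAV939 (-0.27, adjusted p = 0.0308).

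**Figure D4:**
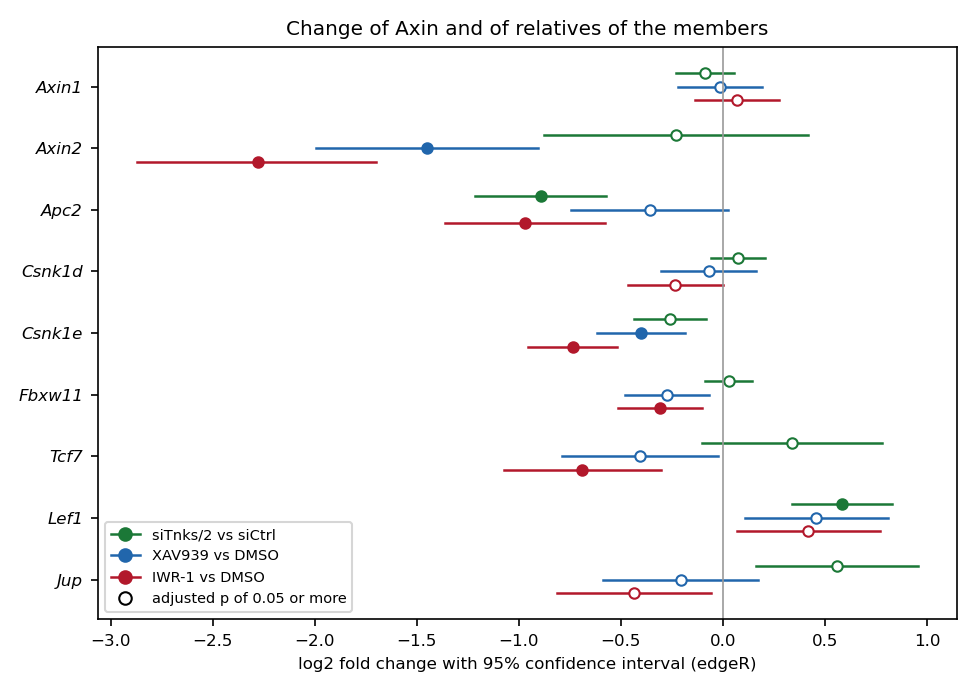
log2 fold change with 95% confidence interval (edgeR) of the Axin genes and 7 relatives of the members in the 3 comparisons with a control; filled points passed an adjusted p of 0.05 without the replicate block. *Axin2* lies at -1.45 with XAV939 and -2.28 with IWR-1, and its interval after knockdown includes 0.

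Across all 105 other genes of the pathway, relatives included, the shares called were near those of the transcriptome. After knockdown 17 of the 88 tested were called (11 higher, 6 lower, 19.3%), with XAV939 18 of 87 (5 higher, 13 lower, 20.7%) and with IWR-1 29 of 87 (5 higher, 24 lower, 33.3%). With the block these were 34, 31 and 42 (38.6%, 35.6% and 48.3%). The shares over all genes tested were 18.0%, 17.4% and 36.4%, and 34.6%, 33.4% and 47.5% with the block. The counts of the separate lists below were not tested against these shares. Median log2 fold changes were -0.02, -0.12 and -0.12, beside the medians near 0 of all genes given above.

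Among 21 genes for Wnt ligands and their secretion, 6 were higher and 1 lower of 11 tested after knockdown, with a median of 0.48. With XAV939 and with IWR-1, 2 were higher and 4 lower of 10 tested, with medians of -0.21 and -0.25. *Wnt4* was higher in all 3 comparisons (5.41 ± 1.27 CPM in siCtrl and 12.4 ± 2.14 in siTnks/2; 0.812 with DMSO, 2.12 with XAV939 and 2.08 with IWR-1). *Wnt10b*, a ligand of the β-catenin branch, rose by 0.76, 0.89 and 0.72 on the log2 scale (edgeR adjusted p = 0.0176, 0.00715 and 0.00987). *Wnt9a*, a ligand of forming joints, fell from 4.84 ± 1.16 CPM with DMSO to 1.24 ± 0.53 with XAV939 and 0.48 ± 0.217 with IWR-1 (log2 fold changes -1.95 and -3.32). *Wnt10a* fell after knockdown (-1.91, adjusted p = 0.0105), with XAV939 (-1.24, adjusted p = 0.0495) and with IWR-1 (-2.81, adjusted p = 0.000513), while *Wnt7b* rose after knockdown (0.83, adjusted p = 0.0392) and fell with XAV939 (-1.63, adjusted p = 0.00369) and IWR-1 (-0.99, adjusted p = 0.0153). With the replicate block 7 of this list were higher and 3 lower after knockdown, 3 and 4 with XAV939, and 3 and 5 with IWR-1, and *Wnt9a* was also called lower after knockdown (-0.71, adjusted p = 0.0239).

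Genes at the receptor were called in both directions. Of 16 genes for Dishevelled and the receptor complex, 15 were tested, and 1 was higher and 2 lower after knockdown, with 1 higher and 4 lower for each compound. *Lrp4*, a relative of the co-receptors that restrains the pathway by binding its antagonists, rose from 5.48 ± 0.804 CPM with DMSO to 8.39 ± 1.25 with XAV939 and 25.6 ± 2.75 with IWR-1 (log2 fold changes 0.61 and 2.22, edgeR adjusted p = 0.0227 and 4.48e-06). *Kremen1*, a receptor for the antagonist DKK1, rose after knockdown (0.51, adjusted p = 0.00797) and fell with XAV939 (-0.66, adjusted p = 0.0188) and IWR-1 (-0.94, adjusted p = 0.00111). *Ror2*, a Wnt receptor of the branch without β-catenin, fell by 0.61 and 0.60 on the log2 scale with XAV939 and IWR-1 (adjusted p = 0.00291 and 0.00109). *Ryk*, another such receptor, fell by 0.44 after knockdown (adjusted p = 0.00822), as did *Csnk1g1*, a casein kinase at the membrane (by 0.26, adjusted p = 0.0477). Both also fell with the compounds, *Ryk* by 0.35 with XAV939 (adjusted p = 0.0493) and 0.405 with IWR-1 (adjusted p = 0.0144), and *Csnk1g1* by 0.47 with each (adjusted p = 0.0334 and 0.0169). With the block 1 was higher and 4 lower after knockdown, *Ror2* among them (-0.22, adjusted p = 0.0199), 1 and 4 with XAV939, and 1 and 5 with IWR-1.

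Of 9 genes for receptor turnover and R-spondins, 7 were tested after knockdown and 6 with the compounds. *Lgr4*, an R-spondin receptor, rose after knockdown (0.54, edgeR adjusted p = 0.00374) and with IWR-1 (0.48, adjusted p = 0.0109). *Rspo1* rose with XAV939 and IWR-1 (1.45 and 2.03, adjusted p = 0.0149 and 0.000632) from a level of only 0.214 CPM with DMSO, and *Rspo2* fell with IWR-1 (-1.12, adjusted p = 0.00015). No other gene of that list was called without the block. With it, *Lgr6* was lower after knockdown (-0.64, adjusted p = 0.0057) and with IWR-1 (-0.54, adjusted p = 0.0038), *Rspo3* with XAV939 (-0.55, adjusted p = 0.0102) and IWR-1 (-0.44, adjusted p = 0.0193), and *Rspo2* with XAV939 as well (-0.30, adjusted p = 0.0456). *Lgr6* and *Rspo3* were singled out after their values were seen.

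All calls in the list of junction genes, made of cadherins, catenins and vinculin, were lower. *Jup*, counted among the relatives above, is not in this list and was called in both directions with the block. Over all genes 7.61%, 9.85% and 20.2% were called lower after knockdown, with XAV939 and with IWR-1. With the block these shares were 16.5%, 17.4% and 25.3%, and the list was not tested against them. None of 8 tested was called after knockdown (edgeR and DESeq2, with 2 and 5 at an unadjusted p under 0.05), 3 were lower with XAV939 and 4 lower with IWR-1, with medians of -0.31, -0.71 and -0.61. *Cdh2*, N-cadherin, fell from 22.7 ± 2.83 CPM with DMSO to 9.99 ± 1.46 with XAV939 and 8.61 ± 1.46 with IWR-1. *Cdh11*, the cadherin of mesenchymal cells, fell from 308 ± 25.1 to 126 ± 12.3 CPM with IWR-1 (log2 fold change -1.29, edgeR adjusted p = 1.18e-05). *Vcl*, the junction and adhesion protein vinculin, fell with XAV939 (-0.98, adjusted p = 0.000452) and IWR-1 (-0.955, adjusted p = 0.000123). *Cdh11* also fell with XAV939 (-0.50, adjusted p = 0.00876). With the replicate block 4 of the 8 were lower after knockdown, namely *Cdh2* (-1.09, adjusted p = 0.0247), *Cdh3* (-0.83, adjusted p = 0.0368), *Cdh13* (-0.77, adjusted p = 0.0244) and *Ctnna1* (-0.225, adjusted p = 0.0298), and 5 were lower with each compound. *Cdh3*, *Cdh13* and *Ctnna1* were named after their values were seen.

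Nuclear cofactors and regulators of the destruction complex gave few calls. Of 22 cofactors tested, 1 was higher and 1 lower after knockdown, 1 higher with XAV939 and 4 lower with IWR-1. *Hbp1*, a repressor of TCF activity, rose (0.39, edgeR adjusted p = 0.0121) and *Pygo2*, a coactivator, fell (-0.275, adjusted p = 0.0465) after knockdown. *Tle2*, a Groucho corepressor, rose with XAV939 (1.02, adjusted p = 0.00108), and *Tle5* (-1.40, adjusted p = 8.43e-05) and *Tle3* (-0.59, adjusted p = 0.00116) of the same family fell with IWR-1. Of 17 regulators of the destruction complex, 1 was higher and 1 lower of 16 tested after knockdown, none was called with XAV939 of 17 (edgeR and DESeq2, each with 2 at an unadjusted p under 0.05), and 2 were lower with IWR-1. The phosphatase subunit *Ppp2r5a* rose (0.64, adjusted p = 0.00298) and its relative *Ppp2r5d* fell (-0.36, adjusted p = 0.0216) after knockdown. *Ppp2r5d* (-0.24, adjusted p = 0.0453) and the GSK3-binding gene *Frat1* (-1.21, adjusted p = 0.0462, from 0.372 CPM with DMSO) fell with IWR-1. With the block the cofactors gave 2 higher and 4 lower after knockdown, 2 and 3 with XAV939, and 1 and 5 with IWR-1. *Tle3* and *Tle5* were among those lower after knockdown (-0.49 and -0.55, adjusted p = 0.0323 and 0.00842), *Tle3* was lower with XAV939 (-0.30, adjusted p = 0.0386), and *Tle2* was lower with IWR-1 (-0.31, adjusted p = 0.0316). The regulators gave 2 higher and 1 lower after knockdown, 2 higher and 3 lower with IWR-1, including *Ppp2r5a* (0.28, adjusted p = 0.0211), and 2 lower with XAV939. Those were the deubiquitinase genes *Usp34* (-0.35, adjusted p = 0.0154) and *Usp7* (-0.27, adjusted p = 0.0278), named after their values were seen.

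Genes whose pattern was most like that of a member were sought among 13341 genes tested in both tables, by the lower of 2 Pearson correlations of log2 CPM, over the 9 drug libraries and over the 6 siRNA libraries. For *Ctnnb1* these were *Plxnb1* (0.971), *Lpcat1* (0.967) and *Prex1* (0.965). For *Lrp5* it was *Cep170b* (0.966), for *Lrp6* *4932438A13Rik* (0.968), for *Apc* *Atl3* (0.965), for *Gsk3b* *Shoc2* (0.932), for *Csnk1a1* *Ubxn7* (0.926) and for *Btrc* *Dtnb* (0.926). *Tcf7l1* with *Fbxw8* (0.894), *Gsk3a* with *B3gnt7* (0.879) and *Tcf7l2* with *Mtus1* (0.875) had the weakest. The libraries behind each value share depth, replicate number and group, and the best of many genes is picked, so the values are a description.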

How the data were processed

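RNA of 15 libraries was prepared with a stranded mRNA kit. The deposited values are read counts per gene, which the authors made, according to the submitters' processing notes, with Trimmomatic 0.32, TopHat2 2.0.13, HTSeq 0.6.1p1 and mm10. Which annotation and which strand option the counting used is not given in the sources used here, so reads of overlapping genes on opposite strands may not be told apart. No column was left without a sample (0). Of 24134 Entrez IDs, 24051 matched a symbol.

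The tests were run with edgeR 4.0.16 under R 4.3.3, using filterByExpr, TMM scaling, and the quasi-likelihood F test with 1 fit per table (13672 and 13873 genes) and 1 over all 15 libraries for differences between effects (14271 genes). P-values were adjusted by Benjamini and Hochberg's method across every gene in a fit, with 0.05 as the limit for a call. A prior count of 2 was used for log2 CPM values only, and log2 fold changes were those of the edgeR fit. Levels are CPM over the TMM-scaled library size, divided by the union of GENCODE M21 exons where genes are compared. Ratios were compared with two-sided exact permutation tests. The steps were tested on simulated data.

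The members and gene lists were chosen with earlier results of these data known. Genes named are the members, Tnks and Tnks2, the relatives, in each other list up to 2 genes called each way with the smallest adjusted p per comparison with a control, and the genes most like each member.

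Libraries of a table that share a replicate number in the labels correlated, after removal of group means, at 0.143 to 0.553 in 9 pairs of the drug table and 0.424 to 0.519 in 3 pairs of the siRNA table. Every such pair was above 0.1, so the numbers were taken to pair the samples. Pairs with different numbers ran from -0.489 to 0.318 in the drug table and from -0.409 to 0.097 in the siRNA table. DMSO replicate 2 correlated more with replicate 1 of XAV939 and IWR-1 (0.318 and 0.316) than with their replicate 2 (0.143 and 0.244). The pairing of replicate 2 in the drug table is therefore less certain. Alternatives were RLE and upper-quartile scaling, no filter or at least 10 counts in every library, DESeq2 1.42.0, the replicate block, only the groups compared, and leaving out each library. Siting of siRNAs and coding stretches used GENCODE M21 transcripts and mm10 coordinates.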

Additional observations from a re-analysis of the deposited data

Results flagged for a closer look

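For *Csnk1a1*, the effect of XAV939 and that of knockdown differed by -0.63 on the log2 scale, and the effects of IWR-1 and of knockdown by -0.48 (edgeR, adjusted p = 0.0058 and 0.0129). All siTnks/2 libraries lay above siCtrl, and all XAV939 and IWR-1 libraries lay below DMSO. For *Tcf7l2*, the effects of IWR-1 and of knockdown differed by -0.53 (adjusted p = 0.0217), with siTnks/2 above siCtrl and IWR-1 below DMSO in every library.

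Differences between effects were also called for Axin and the relatives of the members. For *Axin2* the effects of XAV939 and IWR-1 lay below that of knockdown by 1.23 and 2.06 on the log2 scale (differences of -1.23 and -2.06, edgeR adjusted p = 0.0429 and 0.00149). The effect of IWR-1 minus that of knockdown was -0.49 for *Csnk1e* (adjusted p = 0.00996), -0.35 for *Fbxw11* (adjusted p = 0.0323), -1.04 for *Tcf7* (adjusted p = 0.00796) and -1.01 for *Jup* (adjusted p = 0.00979). The siRNA and drug tables differ in control, carrier and duration, which cannot be told apart from the agent.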

How the results depend on the processing

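The count of members called depended on the setting. For knockdown it was 2, and *Lrp5* was added with DESeq2. It was 0 with upper-quartile factors, 0 with no filter on low counts and 7 with the replicate block. It ran from 0 to 3 when 1 library was left out. For XAV939 it was 1, and 0 with upper-quartile factors, 0 with only the 2 groups compared, 2 with the block and 0 to 1 with a library left out. For IWR-1 it was 1, and 2 with upper-quartile factors, DESeq2 or the block, 3 with only the 2 groups compared and 1 to 3 with a library left out. For IWR-1 against XAV939 it was 0, and 3 with the block and 0 to 1 with a library left out. For the effect of XAV939 minus that of knockdown it was 1, and 2 with the block, and for IWR-1 minus knockdown 2, and 1 to 2 with a library left out. Over all genes the counts of 2459 (knockdown), 2416 (XAV939) and 2442 (IWR-1 against XAV939) became 4727, 4630 and 4258 with the block and 608 to 2868, 1322 to 2484 and 1343 to 3044 with a library left out, and 1569 for XAV939 with only the 2 groups compared. Other pathway genes called rose with the block to 34 after knockdown and 31 with XAV939. The block changed no call of a member other than those printed beside it in the results.

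Changes of sign touched only values that were not called. With upper-quartile factors *Btrc* (0.038) and *Tcf7l2* (0.036) turned positive with XAV939, and so did the XAV939 minus knockdown values of *Ctnnb1* (0.039), *Apc* (0.001) and *Lrp5* (0.042) and the IWR-1 minus knockdown value of *Lrp6* (0.035; 0.015 with the block). With a library left out, ranges that cross 0 were -0.024 to 0.102 for *Gsk3a* and -0.007 to 0.175 for *Btrc* after knockdown. With XAV939 they were -0.064 to 0.022 for *Btrc*, -0.081 to 0.059 for *Tcf7l2*, -0.394 to 0.034 for *Apc* and -0.201 to 0.137 for *Lrp6*. With IWR-1 they were -0.024 to 0.411 for *Apc* and -0.071 to 0.116 for *Tcf7l1*, and against XAV939 -0.007 to 0.099 for *Gsk3a*. For XAV939 minus knockdown they were -0.122 to 0.039 for *Ctnnb1*, -0.268 to 0.174 for *Lrp5*, -0.031 to 0.179 for *Tcf7l1* and -0.237 to 0.213 for *Apc*, and for IWR-1 minus knockdown -0.138 to 0.239 for *Lrp6*. The fall of *Lrp5* with IWR-1 was called under all 16 alternatives and both differences of *Csnk1a1* under all 21. Apart from the fits with fewer samples, the causes of these changes were not tested. At 3 libraries a group, the knockdown differences of *Ctnnb1* and *Csnk1a1* (each 0.24, SE 0.066) sat at the edge of what the test could call. Larger differences with a wider spread were not called, such as that of *Lrp5* with XAV939 (-0.50, SE 0.245).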
